A study of Mus musculus with 6 samples.

Results

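The 40 genes described here are interferon-stimulated antiviral genes, measured in Paneth cells (PCs), the secretory cells of the crypt floor, of mice that had been labelled IFNAR1 KO. They were chosen as a named list of well-known interferon-stimulated genes, by Ensembl identifier, and are 40 of 55414 identifiers in the count table. Of these, 29 had enough reads for a test over all 6 libraries, where 13026 genes were tested. All mice were C57BL/6J and carried the IFNAR1 KO genotype, so there was no group with an intact type I interferon receptor. PCs were purified with a cell sorter from the small intestine 15 h after injection of PBS (the control, 3 libraries) or of tumour necrosis factor (TNF, 3 libraries), with 1 mouse per library. Dose, age and sex are not given in the labels, nor are the gate of the sort and the kind of Ifnar1 allele.

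Type I interferons signal through a receptor made of IFNAR1 and IFNAR2, whose kinases JAK1 and TYK2 activate STAT2. With IRF9 it is part of a complex that binds the interferon-stimulated response element (ISRE) in the promoters of antiviral genes. Type III interferons (lambda) reach the same complex through IFNLR1 and IL10RB, a route used above all in epithelia. Interferon-gamma acts mainly on another element, GAS, and interferon regulatory factors such as IRF1, IRF3 and IRF7 can bind ISRE-like sequences directly. TNF is best known for activating NF-kB. With IFNAR1 lacking, the data address which of the antiviral genes were higher after TNF and which stayed at or near 0.

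The ISRE was looked for in the promoter window of each gene, 250 bases before to 50 bases after the start in RefSeq (build GRCm38.p6), which had an entry for 30 of the 40 genes. Genes with no entry were Oas2, Mx1, Mx2, Usp18, Dhx58, Parp9, Parp14, Ifi27l2a, Rtp4 and Tor3a. The core searched was GAAA, any 2 bases and GAAA again on either strand, and overlapping matches were allowed. It was in 13 of the 30 windows (43.3%), against 3.99% of 27025 genes with a window. Within the 250 bases before the start it was in 11 of 30 (36.7%), against 3.46%. A shorter core, GAAA, any 2 bases and GAA, was in 17 of 30 (56.7%), against 9.76%. A longer core, the full one followed by CT, was in 8 of 30 (26.7%), against 0.303% of all genes, and the GAS core TTCNNNGAA was in 6 of 30 (20%), against 9.55%. The windows of 9 of the 11 genes with a core upstream of the start are shown to let the same element be compared between genes with many and genes with few or no reads. Sequences run 5′ to 3′ on the strand of the gene, and capitals mark the core in either orientation, overlapping cores run together.
Isg15, chr4:156200855-156200916, minus strand: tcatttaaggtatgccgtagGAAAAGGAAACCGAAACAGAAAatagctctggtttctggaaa
Bst2, chr8:71537567-71537622, minus strand: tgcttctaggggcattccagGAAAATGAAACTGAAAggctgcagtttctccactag
Oas1a, chr5:120907526-120907565, minus strand: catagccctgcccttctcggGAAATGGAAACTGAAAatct
Oas3, chr5:120777705-120777754, minus strand: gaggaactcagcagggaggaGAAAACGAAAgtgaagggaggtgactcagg
Rsad2, chr12:26456543-26456592, minus strand: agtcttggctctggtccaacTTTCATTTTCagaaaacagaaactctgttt
Ifit1, chr19:34640765-34640833, plus strand: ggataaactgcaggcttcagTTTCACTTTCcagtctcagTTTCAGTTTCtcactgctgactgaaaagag
Ifit3, chr19:34583353-34583436, plus strand: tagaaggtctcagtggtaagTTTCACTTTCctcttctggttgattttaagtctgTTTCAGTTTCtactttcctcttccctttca
Ifit3b, chr19:34607749-34607832, plus strand: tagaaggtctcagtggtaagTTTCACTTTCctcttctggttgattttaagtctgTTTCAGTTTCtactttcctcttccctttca
Phf11b, chr14:59341351-59341400, minus strand: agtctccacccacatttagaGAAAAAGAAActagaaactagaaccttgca
The stretches of Ifit3 and Ifit3b were identical over 84 of 84 bases. Oas1g and Trim30a also held a core upstream, while Ifih1 and Eif2ak2 held it only after the start. The core was not in the windows of Ifit2, Oasl1, Oasl2, Herc6, Trim25, Adar, Cmpk2, Dtx3l, Helz2, Sp100, Phf11d, Ifi44, Ifi35, Xaf1, Samd9l, Epsti1 and Lgals3bp.

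**Figure D1:**
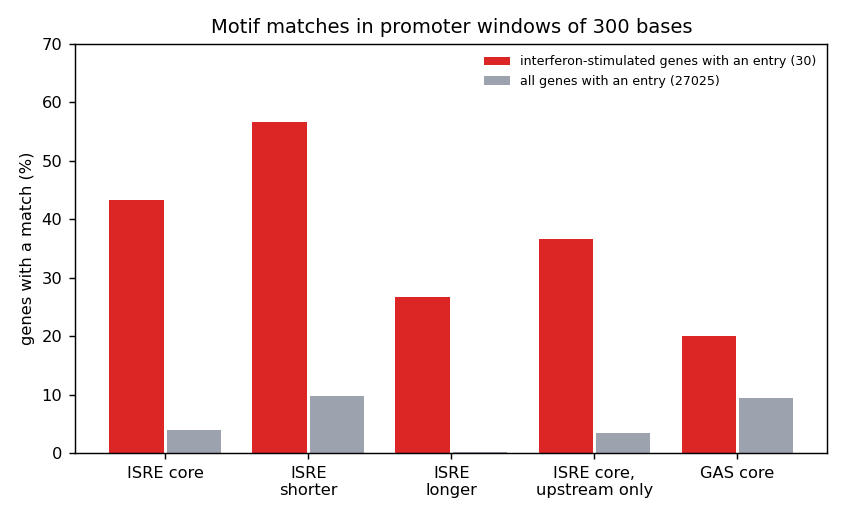
Share of genes (%) whose promoter window of 300 bases holds each motif on either strand, for the 30 interferon-stimulated genes with a RefSeq entry (red) and for all 27025 genes with one (grey); bars start at 0. From left to right they show the ISRE core, the shorter and longer cores, the core in the 250 bases before the start, and the GAS core. The ISRE core was in 43.3% of the interferon-stimulated genes and 3.99% of all genes, the GAS core in 20% and 9.55%.

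Several of the 40 genes are neighbours. In GRCm39 the 4 Ifit genes lie on chromosome 19 (34527932 to 34632174), and Oas1a, Oas1g, Oas2 and Oas3 on chromosome 5 (120868398 to 121046449). Oasl1 and Oasl2 lie elsewhere on that chromosome (115034997 to 115075974). Mx1 and Mx2 are on chromosome 16 (97248235 to 97362100), Rsad2 and Cmpk2 on chromosome 12 (26492745 to 26529836), and Phf11b and Phf11d on chromosome 14 (59558413 to 59602945).

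Levels are given as CPM (counts scaled to a common library size) on library sizes adjusted with TMM, the trimmed mean of M-values, in the order of replicates 1, 2 and 3. Libraries held 12747484 to 17039511 counts. On unadjusted library sizes, 3 counts, the limit that a count of 0 allows, were worth 0.176 to 0.235 CPM, for counting error only. On the adjusted scale used here, 3 counts in TNF replicate 1 were 0.255 CPM, the level of Isg15 and Dhx58 there. PC markers summed to 418972, 340984 and 391872 CPM in the PBS libraries and 551639, 251263 and 403986 CPM in the TNF libraries. That sum was highest in TNF replicate 1, where 15 of the 29 tested antiviral genes were lowest, and lowest in TNF replicate 2, where 26 were highest. In TNF replicate 3, where 27 were above all PBS libraries, it lay within the PBS range. Most of it was Lyz1 and Defa24. Pla2g2a had 492, 312 and 323 CPM in the PBS libraries and 261, 918 and 1052 CPM in the TNF libraries, and Clps 2341, 1251 and 1231 CPM and 2172, 260 and 467 CPM. The part of these markers in the result was not tested. Of 8 immune cell markers, Cd79a, Nkg7, Cd8a and Trdc were at 3 counts or fewer in every library and Cd3e at no more than 4, and the 8 summed to 21.4, 41.5 and 53.2 CPM in the PBS libraries and 43.6, 36.7 and 34.2 CPM in the TNF libraries. In bulk RNA, more cells of a type that expresses a gene and more RNA per cell cannot be told apart. Ifnar1 itself had 5.19, 8.88 and 9.55 CPM in the PBS libraries and 5.18, 7.78 and 12.7 CPM in the TNF libraries. The labels do not say which part of Ifnar1 was removed and counts per gene do not resolve exons, so these reads do not check the genotype.

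TNF replicate 1 stood apart from the other TNF libraries. Over all tested genes its log2 CPM correlated at 0.937 to 0.945 with the PBS libraries and at 0.883 to 0.884 with TNF replicates 2 and 3, which correlated with each other at 0.954. Its label puts it in the TNF group, where it was kept, and the changes of the antiviral genes are given with and without it where they could be tested. PBS replicate 1 also differed, with correlations of 0.930 and 0.938 to the other PBS libraries, which correlated with each other at 0.962.

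After TNF, the antiviral genes were higher in TNF replicates 2 and 3 and not in TNF replicate 1. On their PBS libraries alone, Isg15, Trim30a, Oas1g, Oas2, Oas3, Herc6, Rsad2, Sp100 and Ifit2 did not pass the low-count filter. They were tested only because of TNF reads, so for all but Ifit2 the selection favoured a rise. Of the 29 tested genes, 27 were above all PBS libraries in TNF replicate 2 and 27 in TNF replicate 3, against 33.3% and 33.9% of all tested genes. Both were above all PBS libraries for 27 (24.1% of all tested genes). In TNF replicate 1, 4 were above all PBS libraries and 16 below them (55.2%, against 26.6% of all tested genes). The median log2 ratio to the PBS mean, with 0.5 CPM added to both, was -0.41, 1.75 and 1.40 in TNF replicates 1, 2 and 3, where the median gene was at -0.03, -0.02 and -0.04. All 29 genes were higher in TNF replicate 2 than in TNF replicate 3 (53.6% of all tested genes), by a median of 0.47 on the log2 scale. TNF replicates 2 and 3 were both above the other 4 libraries for 26 of the 29 (20.5% of all tested genes). TNF replicate 2 was the highest of all for 26 (20.6%) and TNF replicate 1 the lowest for 15 (17.0%). Among the PBS libraries, replicate 1 was the lowest for 18 (39.0%). Reads of all 40 genes were 0.0332%, 0.0467% and 0.0437% of counts in the PBS libraries and 0.026%, 0.158% and 0.087% in the TNF libraries.

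**Figure D2:**
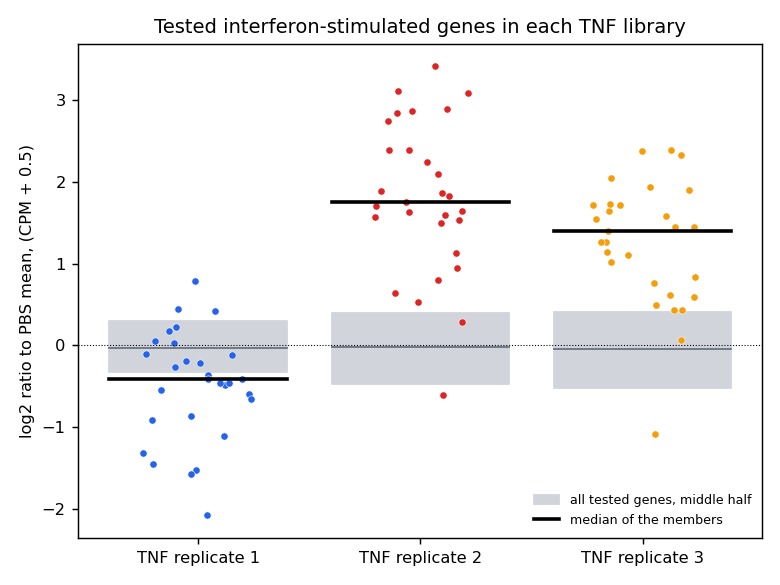
Log2 ratio of each of the 29 tested interferon-stimulated genes to its PBS mean (0.5 CPM added to both) in the 3 TNF libraries; black lines are the medians of these genes and grey boxes the interquartile range of all 13026 tested genes. The medians are -0.41, 1.75 and 1.40 in TNF replicates 1, 2 and 3.

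Over all 6 libraries no gene passed a 5% adjusted p in edgeR's quasi-likelihood test, so 0 of the 29 were called, against a background of 0% of 13026 genes. The smallest adjusted p among them was 0.270. An unadjusted p under 0.05 was reached by 18, all higher after TNF, against 8.25% of all tested genes higher at that level. DESeq2 called 1 of the 29, Ifi35, against a background of 1.43% called higher. Limma-voom called 0, against a background of 0%, with 6 at an unadjusted p under 0.05. The log2 fold change was positive for 28 of the 29 (6508 of 13026 among all tested genes), with a median of 1.30, where the median of all tested genes was -0.00. These counts include the genes named above that were tested only because of TNF reads. Only Trim25, Bst2, Ifi35 and Epsti1 had all TNF libraries above all PBS libraries (13.8%, against 9.07% of all tested genes), and 0 had them all below (7.82% of all tested genes). With library size alone as the scaling, Trim25 and Bst2 no longer did.

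Without TNF replicate 1, 33 of the 40 genes were tested and 25 were called, all higher, against a background of 9.10% called higher and 5.40% called lower among 13660 genes. The change was positive for 32 of the 33 (49.6% of all tested genes), with a median of 1.88, where that of all tested genes was -0.01. Of the 29 genes tested over all libraries, 22 were called, and Ifit2, Oas1g, Oas2, Trim30a, Helz2, Samd9l and Epsti1 were not. Ifit1, Mx2, Isg15, Usp18, Trim30a and Xaf1 entered this test only because of their reads in the TNF libraries, so a difference was built into their selection. Ifit1, Isg15, Usp18 and Xaf1 are among the 25 called. Leaving out any other single library gave 0 calls, among these genes and among all tested genes alike. Without both PBS replicate 1 and TNF replicate 1 there were 25 calls, all higher, against a background of 11.3% called higher and 7.39% lower. With no filter on low counts, 19 of 39 genes were called higher over all libraries (2.10% of all genes higher and 0.849% lower), and 27 without TNF replicate 1 (6.36% higher and 4.64% lower). The comparison without TNF replicate 1 has 3 libraries against 2 and was made knowing that this library stood apart.

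**Figure D3:**
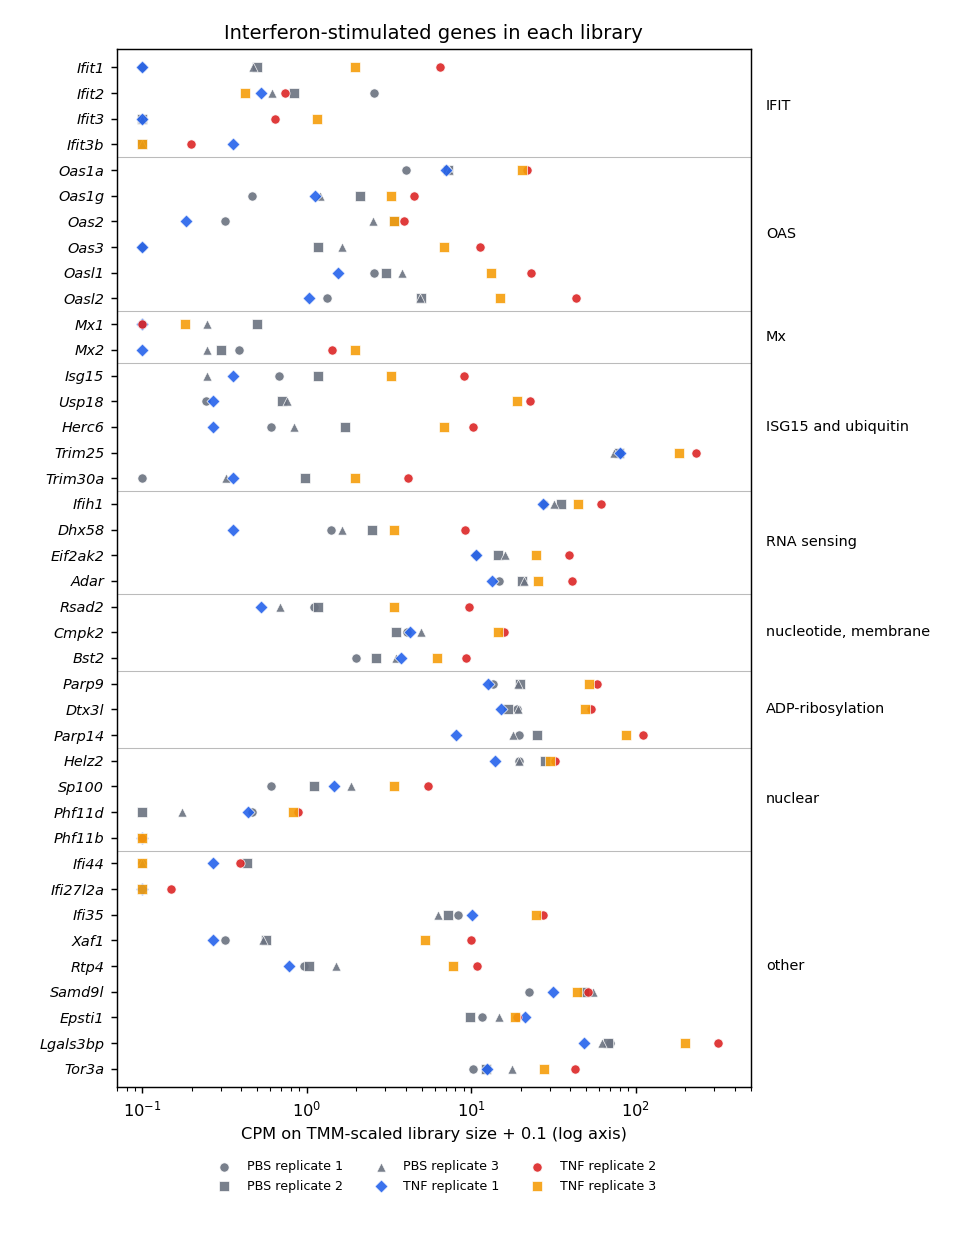
Level of each of the 40 genes in each library (CPM on TMM-scaled library size plus 0.1, log axis), grouped by role; grey symbols are PBS libraries and coloured ones TNF libraries. TNF replicate 2 (red) is the highest of the 6 libraries for 26 of the 29 tested genes, and TNF replicate 1 (blue) the lowest for 15.

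In the following, log2 fold changes of TNF against PBS are given ± SE from edgeR, with its Benjamini-Hochberg adjusted p, first over all 6 libraries and then without TNF replicate 1. Among sensors of viral RNA and their effectors, all 4 genes were called higher without TNF replicate 1, against 9.10% of all tested genes. Ifih1, which encodes the RNA sensor MDA5, had 27.7, 35.2 and 31.8 CPM in the PBS libraries and 27.1, 61.3 and 44.5 CPM in the TNF libraries. Dhx58, which encodes LGP2, a regulator of such sensors, had 1.3, 2.4 and 1.54 CPM in the PBS libraries and 0.255, 9.1 and 3.3 CPM in the TNF libraries. For both, TNF replicates 2 and 3 were above every PBS library and TNF replicate 1 was below every one. The changes were 0.49 ± 0.29 (adjusted p = 0.517) for Ifih1 and 1.28 ± 0.90 (adjusted p = 0.591) for Dhx58. Leaving out TNF replicate 1, they were 0.77 ± 0.21 (adjusted p = 0.0324) and 1.85 ± 0.53 (adjusted p = 0.0372).

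Eif2ak2 encodes PKR, the kinase that halts translation on double-stranded RNA, and had 10.6, 14.5 and 15.9 CPM in the PBS libraries and 10.5, 39.3 and 24.6 CPM in the TNF libraries. Adar, the enzyme that edits adenosines in double-stranded RNA, had 14.7, 20.1 and 20.8 CPM in the PBS libraries and 13.2, 41.1 and 25.2 CPM in the TNF libraries. Again TNF replicate 1 was the lowest library of all, by a small margin for Eif2ak2, while TNF replicates 2 and 3 were the highest. The change of Eif2ak2 was 0.87 ± 0.42 over all libraries (adjusted p = 0.437) and 1.25 ± 0.26 without TNF replicate 1 (adjusted p = 0.009). For Adar these were 0.52 ± 0.37 (adjusted p = 0.599) and 0.86 ± 0.25 (adjusted p = 0.0439). Exons of Adar overlap those of Chrnb2 on the other strand over 16.8% of their length, and whether counting used strand is not known here.

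The oligoadenylate synthetases make the messenger that activates RNase L, and Oasl1 and Oasl2 are their relatives. All 6 were tested, and 4 were called higher without TNF replicate 1, against 9.10% of all tested genes. Oasl1, which restrains translation of Irf7 mRNA, had 2.45, 2.94 and 3.67 CPM in the PBS libraries and 1.44, 22.9 and 13 CPM in the TNF libraries. Oasl2 had 1.23, 4.81 and 4.78 CPM in the PBS libraries and 0.935, 43.2 and 14.8 CPM in the TNF libraries. Oas3, which responds to long double-stranded RNA, had 0, 1.07 and 1.54 CPM in the PBS libraries and 0, 11.2 and 6.68 CPM in the TNF libraries. In each of these 3, TNF replicates 2 and 3 exceeded every PBS library, and TNF replicate 1 was at or below the lowest PBS library. The changes over all libraries were 2.05 ± 0.74 (adjusted p = 0.331) for Oasl1, 2.45 ± 0.99 (adjusted p = 0.37) for Oasl2 and 2.77 ± 1.38 (adjusted p = 0.446) for Oas3. With TNF replicate 1 left out they were 2.59 ± 0.33 (adjusted p = 5.01e-04), 3.03 ± 0.52 (adjusted p = 0.0029) and 3.37 ± 0.79 (adjusted p = 0.016).

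Oas1a had 3.9, 7.14 and 7.2 CPM in the PBS libraries and 6.88, 21.6 and 20.1 CPM in the TNF libraries, and its neighbour Oas1g 0.361, 2 and 1.1 CPM in the PBS libraries and 1.02, 4.4 and 3.14 CPM in the TNF libraries. TNF replicate 1 lay within the PBS range for both. The change of Oas1a was 1.41 ± 0.44 (adjusted p = 0.297) and, without TNF replicate 1, 1.79 ± 0.29 (adjusted p = 0.00226), and that of Oas1g was 1.30 ± 0.75 (adjusted p = 0.507) and 1.72 ± 0.68 (adjusted p = 0.119). Their coding sequences are identical at 96.7% of aligned bases, so reads of one can be counted for the other. Oas2 had 0.216, 3.27 and 2.42 CPM in the PBS libraries and 0.085, 3.82 and 3.3 CPM in the TNF libraries. Its low libraries were PBS replicate 1 and TNF replicate 1, and TNF replicates 2 and 3 were just above the highest PBS library. The change was 0.30 ± 1.08 (adjusted p = 0.933) and 0.87 ± 0.77 without TNF replicate 1 (adjusted p = 0.511), and its sign turned to -0.23 without PBS replicate 1.

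The IFIT proteins bind viral RNA or block its translation. Of the 4 genes, 2 were tested without TNF replicate 1 and 1 of them, Ifit1, was called higher, against 9.10% of all tested genes. Ifit1 entered that comparison only because of its TNF reads. It had 0, 6 and 5 counts in the PBS libraries and 0, 130 and 23 in the TNF libraries, and was not tested over all libraries. Without TNF replicate 1 the change was 3.98 ± 0.94 (adjusted p = 0.0166). Ifit3 had 0 counts in all PBS libraries and in TNF replicate 1, and 11 and 13 counts in TNF replicates 2 and 3. Ifit3b had 3 and 2 counts in TNF replicates 1 and 2 and 0 in all others. These sit beside the promoter stretches of Ifit3 and Ifit3b printed above, which are the same and hold the longer core. The coding sequences of Ifit3 and Ifit3b are identical at 99.1% of aligned bases, so the split of reads between them is uncertain.

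Ifit2 was the tested gene with a negative change. It had 2.45, 0.734 and 0.514 CPM in the PBS libraries and 0.425, 0.636 and 0.322 CPM in the TNF libraries. The highest library was PBS replicate 1, and the other 5 overlapped. The change was -1.38 ± 0.84 (adjusted p = 0.529), and without TNF replicate 1 -1.30 ± 1.03 (adjusted p = 0.454). GTPases of the Mx family can block viral nucleocapsids, and both genes were low here. Whether this strain makes working Mx proteins was not examined. Mx1 had 0, 6 and 2 counts in the PBS libraries and 0, 0 and 1 in the TNF libraries. Mx2 had 4, 3 and 2 counts and 0, 27 and 23 counts, a change of 2.87 ± 0.97 (adjusted p = 0.0716) without TNF replicate 1. Mx1 and Mx2 share 86.2% of aligned coding bases.

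Isg15 (ENSMUSG00000035692) encodes the ubiquitin-like modifier of the antiviral response. Of the 5 genes of this and related ubiquitin functions, 4 were called higher without TNF replicate 1, against 9.10% of all tested genes. Among these 4, Isg15 and Usp18 entered that comparison only because of their TNF reads. Isg15 had 0.577, 1.07 and 0.147 CPM in the PBS libraries and 0.255, 8.95 and 3.14 CPM in the TNF libraries. Usp18 (ENSMUSG00000030107), the protease that removes ISG15 and restrains interferon receptor signalling, had 0.144, 0.601 and 0.661 CPM in the PBS libraries and 0.17, 22.5 and 18.8 CPM in the TNF libraries. Herc6, the mouse ligase for ISG15, had 0.505, 1.6 and 0.735 CPM in the PBS libraries and 0.17, 10.2 and 6.76 CPM in the TNF libraries. In all 3, TNF replicate 1 lay within or below the PBS range and TNF replicates 2 and 3 lay far above it. The changes were 2.77 ± 1.08 (adjusted p = 0.356) for Isg15 and 2.59 ± 1.03 (adjusted p = 0.368) for Herc6 over all libraries, while Usp18 was not tested. Over the other 5 libraries they were 3.34 ± 0.71 (adjusted p = 0.01) for Isg15, 5.45 ± 0.43 (adjusted p = 2.37e-05) for Usp18 and 3.17 ± 0.52 (adjusted p = 0.00228) for Herc6.

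Exons of Isg15 overlap those of a long non-coding RNA, Gm46878, on the other strand over 31.1% of their length. Usp18 had the largest of the 33 log2 fold changes in this comparison, and its reads in the PBS libraries were 2, 9 and 9 counts. Trim25 (ENSMUSG00000000275), a ubiquitin ligase acting on RNA sensing, had far more reads, with 78.3, 78.9 and 73.4 CPM in the PBS libraries and 79.5, 232 and 184 CPM in the TNF libraries. TNF replicate 1 was above the PBS libraries by less than the spread among them. The change of Trim25 was 1.10 ± 0.35 (adjusted p = 0.3) and 1.46 ± 0.20 without TNF replicate 1 (adjusted p = 9.01e-04). Trim30a, of a family of inhibitors of innate signalling, had 0, 0.868 and 0.22 CPM in the PBS libraries and 0.255, 4.01 and 1.85 CPM in the TNF libraries. The change was 2.47 ± 1.20 (adjusted p = 0.44) and 2.99 ± 1.04 (adjusted p = 0.0788).

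Rsad2, Cmpk2 and Bst2 act on viral genomes and budding, and all 3 were called higher without TNF replicate 1, against 9.10% of all tested genes. Rsad2 encodes viperin, which makes a chain-terminating nucleotide, and had 1.01, 1.07 and 0.588 CPM in the PBS libraries and 0.425, 9.64 and 3.3 CPM in the TNF libraries. Its neighbour Cmpk2, a mitochondrial nucleotide kinase, had 3.97, 3.4 and 4.85 CPM in the PBS libraries and 4.16, 15.8 and 14.4 CPM in the TNF libraries. Bst2, the tetherin that holds budding virions at the membrane, had 1.88, 2.54 and 3.38 CPM in the PBS libraries and 3.65, 9.15 and 6.12 CPM in the TNF libraries. TNF replicate 1 was the lowest library for Rsad2, lay within the PBS range for Cmpk2, and was above it for Bst2. The changes were 2.33 ± 0.90 (adjusted p = 0.355) for Rsad2, 1.50 ± 0.47 (adjusted p = 0.297) for Cmpk2 and 1.28 ± 0.45 (adjusted p = 0.326) for Bst2. Without TNF replicate 1 they were 2.88 ± 0.57 (adjusted p = 0.0068), 1.91 ± 0.29 (adjusted p = 0.00138) and 1.58 ± 0.41 (adjusted p = 0.0247).

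Parp9, Dtx3l and Parp14 lie close together on chromosome 16 (35653231 to 35792980, GRCm39) and encode ADP-ribosyltransferases and the ubiquitin ligase that partners PARP9. Parp14 had 19.3, 25.1 and 17.9 CPM in the PBS libraries and 7.99, 111 and 87.5 CPM in the TNF libraries. Parp9 had 13.5, 19.6 and 19.2 CPM in the PBS libraries and 12.6, 57.8 and 52.1 CPM in the TNF libraries. Dtx3l had 18.8, 16.7 and 19 CPM in the PBS libraries and 15, 53.6 and 48.9 CPM in the TNF libraries. The pattern was the same in all 3, with TNF replicates 2 and 3 above every other library, and TNF replicate 1 the lowest of all. Changes were 1.73 ± 0.70 (adjusted p = 0.37) for Parp14, 1.23 ± 0.47 (adjusted p = 0.352) for Parp9 and 1.11 ± 0.40 (adjusted p = 0.331) for Dtx3l. Leaving out TNF replicate 1, they were 2.28 ± 0.22 (adjusted p = 8.16e-05), 1.68 ± 0.22 (adjusted p = 5.44e-04) and 1.51 ± 0.19 (adjusted p = 4.41e-04). Parp9 and Dtx3l share 458 exonic bases on opposite strands, so they may share reads.

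Of the 4 genes of nuclear proteins, 2 were tested without TNF replicate 1 and Sp100 was called higher, against 9.10% of all tested genes. Sp100, a component of nuclear bodies that restrict DNA viruses, had 0.505, 1 and 1.76 CPM in the PBS libraries and 1.36, 5.38 and 3.3 CPM in the TNF libraries, a change of 1.62 ± 0.68 (adjusted p = 0.388), or 2.01 ± 0.61 (adjusted p = 0.0498) without TNF replicate 1. Helz2, a nuclear helicase, had 19.4, 27.8 and 19.3 CPM in the PBS libraries and 13.9, 32.3 and 30.1 CPM in the TNF libraries, a change of 0.20 ± 0.33 (adjusted p = 0.836), or 0.51 ± 0.22 (adjusted p = 0.16). For Helz2, TNF replicates 2 and 3 were above the PBS libraries by less than the range among them, and TNF replicate 1 was below them. Phf11d had 5, 0 and 1 counts in the PBS libraries and 4, 16 and 9 in the TNF libraries. Phf11b had 0 counts in every library, although its window holds the longer core shown above. The coding sequences of Phf11b and Phf11d are identical at 88.5% of aligned bases.

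Of the other 9 genes, 7 were tested without TNF replicate 1 and 5 were called higher, against 9.10% of all tested genes. Lgals3bp (ENSMUSG00000033880), a secreted binder of galectins, had 69.9, 67.3 and 61.8 CPM in the PBS libraries and 48.2, 316 and 200 CPM in the TNF libraries. Ifi35 (ENSMUSG00000010358), a partner of NMI, had 8.15, 7.14 and 6.17 CPM in the PBS libraries and 9.94, 27.3 and 24.6 CPM in the TNF libraries. Rtp4, a chaperone of G protein-coupled receptors, had 0.866, 0.934 and 1.4 CPM in the PBS libraries and 0.68, 10.7 and 7.65 CPM in the TNF libraries. TNF replicates 2 and 3 were above every PBS library in all 3, and so was TNF replicate 1 for Ifi35, but not for Lgals3bp or Rtp4, where it was the lowest library. The changes were 1.50 ± 0.53 (adjusted p = 0.326) for Lgals3bp, 1.53 ± 0.37 (adjusted p = 0.27) for Ifi35 and 2.58 ± 0.82 (adjusted p = 0.297) for Rtp4. With TNF replicate 1 left out they were 1.98 ± 0.24 (adjusted p = 3.37e-04), 1.88 ± 0.23 (adjusted p = 3.91e-04) and 3.12 ± 0.42 (adjusted p = 7.51e-04). In DESeq2 over all libraries the adjusted p was 0.0192 for Ifi35 and 0.0501 for Rtp4. Exons of Ifi35 overlap those of Vat1 on the other strand over 16.2% of their length.

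Xaf1, a promoter of apoptosis, had 0.216, 0.467 and 0.441 CPM in the PBS libraries and 0.17, 9.83 and 5.15 CPM in the TNF libraries, with a change of 4.31 ± 0.56 (adjusted p = 5.51e-04) without TNF replicate 1. Xaf1 entered that comparison only because of its TNF reads. Tor3a, a torsin ATPase of the endoplasmic reticulum, had 10.1, 12.2 and 17.6 CPM in the PBS libraries and 12.3, 42.3 and 27.4 CPM in the TNF libraries. The change was 1.04 ± 0.41 (adjusted p = 0.365), or 1.41 ± 0.28 (adjusted p = 0.00634) without TNF replicate 1. Its exons overlap those of Abl2 over 17.3% of their length. For both genes TNF replicate 1 was within or near the PBS range and TNF replicates 2 and 3 were above it.

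Epsti1 and Samd9l had many reads and were not called in either comparison. Epsti1 had 11.5, 9.68 and 14.7 CPM in the PBS libraries and 21.1, 18.9 and 18.3 CPM in the TNF libraries. Here alone among the tested genes TNF replicate 1 was the highest of the 6 libraries, and all TNF libraries were above the PBS libraries. The change was 0.70 ± 0.24 (adjusted p = 0.318), or 0.66 ± 0.24 (adjusted p = 0.101) without TNF replicate 1. Samd9l, a restriction factor for poxviruses, had 22.4, 48.5 and 54.5 CPM in the PBS libraries and 31.3, 50.9 and 43.7 CPM in the TNF libraries. The lowest libraries were PBS replicate 1 and TNF replicate 1, and the change was 0.01 ± 0.33 (adjusted p = 0.994), with a sign that turned under 5 of the other scalings, filters or tests. Ifi44 had 0, 5 and 0 counts and 2, 6 and 0 counts, and Ifi27l2a had 1 count in TNF replicate 2 and 0 elsewhere. Phf11b, Ifit3b and Ifi27l2a were at 3 counts or fewer in every library, which at this depth does not show that they were absent.

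**Figure D4:**
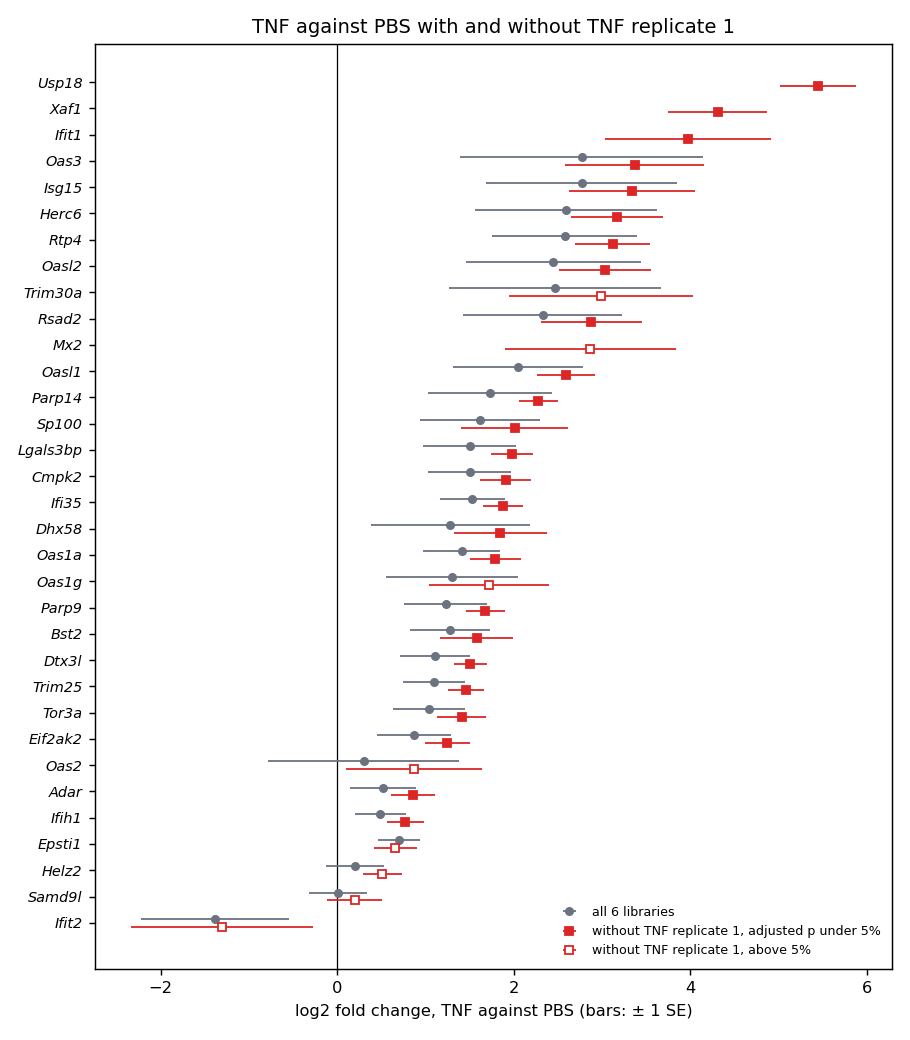
Log2 fold change of TNF against PBS (points) with 1 SE on each side (bars) for the genes tested, over all 6 libraries (grey circles) and without TNF replicate 1 (squares, filled where the adjusted p was under 5%). Usp18, Xaf1, Ifit1 and Mx2 were tested only without TNF replicate 1, and Ifit2 lies to the left of 0 in both comparisons.

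Per kilobase of annotated exon, a scale on which levels of different genes can be set side by side, the most abundant of the 40 in the PBS libraries were Trim25 at 13.4, Lgals3bp at 12.6 and Samd9l at 7.12 CPM per kb (means of 3). In TNF replicates 2 and 3 they were Lgals3bp at 49, Trim25 at 36.1, Parp9 at 10.9 and Parp14 at 10.3 CPM per kb (means of 2). Isg15 was at 7.73 and Usp18 at 6.35 CPM per kb there. The exon length counts all annotated exons of a gene, so a gene with long rare exons is understated. Genes with a high level before TNF and genes at or near the limit of counting were both among those called without TNF replicate 1. Of the latter, Ifit1, Isg15, Usp18 and Xaf1 entered that test only because of their reads in the TNF libraries, so their calls do not describe genes of low level.

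A core in the window was neither present in every called gene nor missing from every gene near 0. Oasl2, Ifi35, Xaf1, Lgals3bp and Herc6, all called without TNF replicate 1, had no ISRE core in the window. By contrast, Ifit3b and Phf11b held the longer core and had 3 counts or fewer in every library. Ifit3 held it too, but its only reads were 11 and 13 counts in TNF replicates 2 and 3. As the coding sequences of Ifit3 and Ifit3b are identical at 99.1% of aligned bases, their low counts are uncertain. A window of 300 bases does not cover distant elements, and a match is not a bound site.

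Markers of other crypt and villus cells differed between libraries. Those of tuft cells summed to 333, 983 and 1197 CPM in the PBS libraries and 412, 733 and 417 CPM in the TNF libraries. This sum was low in PBS replicate 1 and TNF replicate 1, the low libraries of Oas2 and Samd9l, and in TNF replicate 3. Stem cell markers summed to 2590, 2414 and 2123 CPM in the PBS libraries and 4095, 361 and 373 CPM in the TNF libraries. Enterocyte markers summed to 94.6, 103 and 116 CPM in the PBS libraries and 101, 19.7 and 24.2 CPM in the TNF libraries. Both sums were lowest in TNF replicates 2 and 3, the libraries in which the antiviral genes were highest. In the PBS libraries they came mostly from Olfm4 and Fabp2. Ascl2, Smoc2 and Sis were also lowest in TNF replicates 2 and 3, and Apoa1, Apoa4 and Alpi were below every PBS library in all TNF libraries. Lgr5 had 54, 68.9 and 76.8 CPM in the PBS libraries and 69, 68.3 and 42.2 CPM in the TNF libraries. Fabp1 had 0.577, 15.6 and 8.67 CPM in the PBS libraries and 3.06, 10.7 and 10.1 CPM in the TNF libraries. Goblet cell markers summed to 3082, 3330 and 2964 CPM in the PBS libraries and 3079, 2964 and 2274 CPM in the TNF libraries and among them Muc2 alone had 1481, 1860 and 1110 CPM in the PBS libraries and 888, 2580 and 1440 CPM in the TNF libraries. The other 4, Tff3, Fcgbp, Zg16 and Clca1, were lowest in TNF replicates 2 and 3 and were called lower without TNF replicate 1, against 5.40% of all tested genes. Their changes were -1.20 ± 0.35 (adjusted p = 0.0395), -1.92 ± 0.31 (adjusted p = 0.0023), -2.84 ± 0.31 (adjusted p = 2.08e-04) and -1.70 ± 0.37 (adjusted p = 0.0118). Olfm4, Ascl2, Smoc2, Apoa1, Apoa4, Sis and Fabp2 were called lower there too, while Lgr5, Fabp1 and Alpi were not called. Among PC markers, Clps was called lower and Pla2g2a higher there. Enteroendocrine markers summed to 20.6 to 83.6 CPM, with overlapping groups, and those of endothelial and stromal cells to at most 0.667 CPM. The part of other cells in the changes was not tested. The summed immune markers in TNF replicates 2 and 3 lay within the range of the PBS libraries, but nearly all of that sum was Lyz2 and Ptprc. Lyz2 had 17.2, 16 and 19 CPM in the PBS libraries and 27.6, 13.1 and 25.4 CPM in the TNF libraries. Ptprc, the pan-leukocyte gene CD45, had 3.9, 25 and 33.9 CPM in the PBS libraries and 15.8, 22.7 and 8.86 CPM in the TNF libraries.

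The other genes of the pathway were taken from lists of general knowledge, which, like the 40 genes, were written with earlier results of these data known. Of 12 interferon genes (Ifnb1, 5 Ifna genes, Ifne, Ifnk, Ifnz, Ifnl2, Ifnl3 and Ifng), 11 had 0 counts in every library, and Ifnz had 3 counts in PBS replicate 3. Of the 6 receptor chains, 0 were called over all libraries in edgeR, and Ifngr1 and Ifngr2, the chains of the interferon-gamma receptor, were called higher without TNF replicate 1. Of all tested genes, 9.10% were called higher without TNF replicate 1, and 1.43% in DESeq2 over all libraries. Ifngr2 had 32.2, 23.6 and 31.1 CPM in the PBS libraries and 37.8, 162 and 148 CPM in the TNF libraries. Ifngr1 had 30.2, 21.9 and 29.8 CPM in the PBS libraries and 42.2, 64.7 and 64.2 CPM in the TNF libraries. Every TNF library, replicate 1 included, was above every PBS library for both. The changes were 2.00 ± 0.47 (adjusted p = 0.27) and 1.07 ± 0.24 (adjusted p = 0.27), with adjusted p = 0.00213 and 0.0192 in DESeq2. Over the other 5 libraries they were 2.44 ± 0.21 (adjusted p = 4.11e-05) and 1.26 ± 0.20 (adjusted p = 0.00209).

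Ifnlr1, the chain specific to the lambda receptor, had 4.04, 4.47 and 4.48 CPM in the PBS libraries and 1.78, 2.45 and 2.09 CPM in the TNF libraries, so all TNF libraries were below all PBS libraries, with a change of -1.03 ± 0.40 (adjusted p = 0.361), or -0.91 ± 0.44 (adjusted p = 0.202) without TNF replicate 1. Its partner Il10rb had a change of 0.03 ± 0.21 (adjusted p = 0.964), or 0.20 ± 0.19 (adjusted p = 0.537). Ifnar2 had a change of 0.69 ± 0.36 (adjusted p = 0.472), or 0.88 ± 0.36 (adjusted p = 0.135). That of Ifnar1 was 0.12 ± 0.39 (adjusted p = 0.925), or 0.39 ± 0.34 (adjusted p = 0.505).

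Of 13 transducers, 12 were tested over all libraries with 0 called. Without TNF replicate 1, 3 of 13 were called higher, against 9.10% of all tested genes. These were Stat2 and Irf9, which encode parts of the ISRE-binding complex, and Irf7, which is itself interferon-stimulated. Irf7 had 5.05, 13.6 and 9.85 CPM in the PBS libraries and 4.25, 36.2 and 18.4 CPM in the TNF libraries. The change was 1.05 ± 0.64 (adjusted p = 0.527), or 1.54 ± 0.38 (adjusted p = 0.0198) without TNF replicate 1. Stat2 had 14.6, 16.9 and 13.4 CPM in the PBS libraries and 6.29, 35.6 and 24.1 CPM in the TNF libraries, and Irf9 6.2, 12.6 and 10.7 CPM in the PBS libraries and 8.24, 29.5 and 22 CPM in the TNF libraries. Their changes were 0.56 ± 0.49 (adjusted p = 0.673) and 1.02 ± 0.45 (adjusted p = 0.401), or 1.02 ± 0.23 (adjusted p = 0.0142) and 1.41 ± 0.29 (adjusted p = 0.00894) without TNF replicate 1. The change of Irf1 was -0.15 ± 0.18 (adjusted p = 0.78), or -0.13 ± 0.19 (adjusted p = 0.711). Irf5, not called, entered the latter comparison only through its TNF reads. Of 5 inhibitors of the pathway, 0 were called with or without TNF replicate 1, and the change of Socs3 was -1.30 ± 0.46 (adjusted p = 0.329), or -1.09 ± 0.45 (adjusted p = 0.137).

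A further list held genes driven mainly by interferon-gamma and GAS elements. Of 14, 11 were tested over all libraries with 0 called in edgeR. In DESeq2, 4 were called higher (Gbp2, Psmb8, Tap1 and B2m), against 1.43% of all tested genes. Without TNF replicate 1, 10 of 12 were called higher and Ciita lower, against 9.10% and 5.40% of all tested genes. Cxcl9, among the 10, entered that test only through its reads in the TNF libraries. Gbp2, a guanylate-binding GTPase, had 0.938, 1.47 and 0.735 CPM in the PBS libraries and 0.51, 48.7 and 37.7 CPM in the TNF libraries. The change was 4.78 ± 1.16 (adjusted p = 0.27), or 5.37 ± 0.30 (adjusted p = 2.14e-06) without TNF replicate 1. Psmb8, a subunit of the immunoproteasome, had 8.87, 13.8 and 11.2 CPM in the PBS libraries and 12.7, 59 and 49 CPM in the TNF libraries, with a change of 1.83 ± 0.48 (adjusted p = 0.27), or 2.28 ± 0.23 (adjusted p = 1.27e-04). Ciita, the activator of MHC class II genes, had 4.98, 2.2 and 3.82 CPM in the PBS libraries and 3.14, 0.44 and 0.886 CPM in the TNF libraries, with a change of -1.32 ± 0.73 (adjusted p = 0.49), or -2.47 ± 0.67 (adjusted p = 0.0299).

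NF-kB targets are textbook TNF response genes. Of 11, 9 were tested over all libraries, all with a positive change and a median of 1.46. In edgeR 0 were called, and in DESeq2 2 were called higher (Relb and Ccl20), against 1.43% of all tested genes. Without TNF replicate 1, 10 of 11 were called higher, against 9.10% of all tested genes. Of the 10, Cxcl1, Cxcl2 and Icam1 entered the test only because of their reads in the TNF libraries, like Nfkbie, which was not called. Relb, an NF-kB subunit, had 6.49, 6.34 and 6.17 CPM in the PBS libraries and 8.24, 28.2 and 27.1 CPM in the TNF libraries. Icam1, an adhesion molecule, had 0, 0.334 and 1.25 CPM in the PBS libraries and 1.61, 24.2 and 32.2 CPM in the TNF libraries. Both were higher in TNF replicate 1 than in every PBS library, and far higher in TNF replicates 2 and 3. In TNF replicate 1, Nfkbie, Tnfaip3, Cxcl1 and Ccl20 were also above every PBS library, whereas Nfkbia, Nfkb2, Birc3, Cxcl2 and Tnip1 were not. Tnip1 had 11.9, 12.7 and 13.5 CPM in the PBS libraries and 9.94 CPM in TNF replicate 1. The changes of Relb and Icam1 were 1.74 ± 0.42 (adjusted p = 0.27) and 5.19 ± 1.16 (adjusted p = 0.27), or 2.14 ± 0.22 (adjusted p = 1.32e-04) and 5.75 ± 0.62 (adjusted p = 1.98e-04) without TNF replicate 1.

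**Figure D5:**
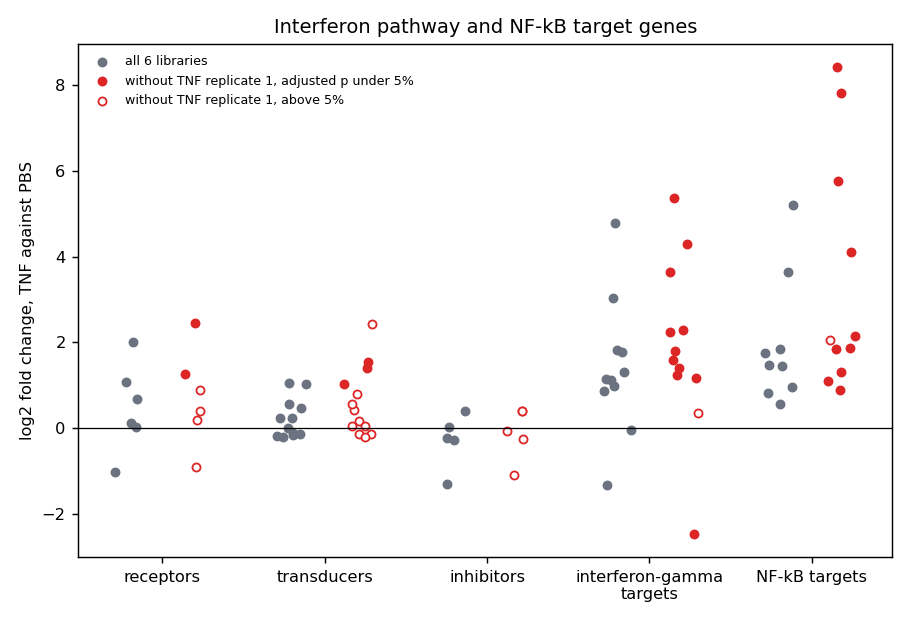
Log2 fold change of TNF against PBS for the tested receptors, transducers, inhibitors, interferon-gamma targets and NF-kB targets, over all 6 libraries (grey) and without TNF replicate 1 (red, filled where the adjusted p was under 5%). The highest pair of NF-kB targets, Cxcl2 and Cxcl1, had 0 counts in all PBS libraries, so the size of their fitted change depends on the prior count.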

How the data were processed

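RNA of purified PCs from 3 PBS-injected and 3 TNF-injected mice was measured by single-end sequencing on an Element AVITI instrument after purification with the Aurum Total RNA Mini kit, per the labels. The deposited data were raw counts by Ensembl gene, in 6 columns of 1 library each. Their processing notes name mm39, FastQC, Trimmomatic 0.39, STAR 2.7.10a and DESeq2. Counting tool, annotation, strand setting and the handling of multi-mapping reads are not given in the sources, so near-identical and overlapping genes are uncertain. Groups and replicate numbers came from the sample labels.

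Identifiers were matched to GENCODE (GRCm39), with 54749 of 55414 matched and 0.0193% of counts unmatched. The analysis used edgeR 4.0.16 (R 4.3.3). Low-count genes were removed with filterByExpr (count of at least 10, total of at least 15), TMM factors adjusted the library sizes, and TNF was tested against PBS with the two-sided quasi-likelihood test (group as the only term), with Benjamini-Hochberg adjustment over all tested genes and a threshold of 5%. The SE was derived from the fold change and its F statistic. The test was checked on simulated counts with the same spread for every gene and no library that stood apart. That check therefore does not cover data with a library like TNF replicate 1. The 40 genes and the other gene lists were chosen with earlier results of these data known, and all 40 are accounted for. No p-value was computed over a list. One pathway gene is not reported by name here. Promoter windows came from RefSeq (GRCm38.p6). Identity was computed from coding sequences of canonical GENCODE transcripts, in place of the planned protein sequences. Alternatives were RLE and upper-quartile factors, library size alone, no low-count filter, DESeq2 1.42.0, limma-voom (limma 3.58.1), the replicate number as a block, a 1% threshold and each library left out. Leaving out PBS replicate 1 and TNF replicate 1 together, and no filter without TNF replicate 1, were added after seeing the data.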

Additional observations from a re-analysis of the deposited data

How the results depend on the processing

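Calls depended on TNF replicate 1 and on the low-count filter. Against 0 of 29 genes called over all libraries, 19 of 39 were called with no filter (background 2.10% higher) and 1 in DESeq2, and 0 to 25 when each library was left out. Leaving out PBS replicate 1 and TNF replicate 1 together gave 25 of 33 calls (background 11.3% higher), and no filter without TNF replicate 1 gave 27 of 39 (6.36%). Limma-voom, upper-quartile factors, library size alone and RLE factors gave 0, as did a 1% threshold, and each of these called 0 of all tested genes. Of the other pathway genes, 0 of 43 were called over all libraries and 8 of 43, all higher, in DESeq2 (background 1.43% higher). With no filter 19 of 50 were called, 18 higher and 1 lower (2.10% and 0.849%). With each library left out the count was 0 to 26, the 26 of 47 being 25 higher and 1 lower without TNF replicate 1 (9.10% and 5.40%).

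Replicate numbers did not pair the libraries (correlations of deviations of same-numbered libraries were -0.0128, -0.0748 and 0.0311). The fit with the replicate number as a block called 0 genes of the list, 0 of the other pathway genes and 0 of all tested genes.

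Library size alone left 2 of the 4 genes whose groups did not overlap and moved the median of all genes to -0.11. Leaving out each library gave 4 to 27 such genes, the 27 of 29 without TNF replicate 1, where 24.1% of all tested genes had both other TNF libraries above all PBS libraries. The median log2 fold change of the list stayed positive, from 0.87 without TNF replicate 2 to 1.88 without TNF replicate 1. The longer ISRE core was in 8 windows against 13 for the core.

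The sign turned for 4 genes. With single libraries left out, the log2 fold change ranged from -0.25 (TNF replicate 2) to 0.87 for Oas2, which was at -0.23 without PBS replicate 1, from -0.01 to 1.85 for Dhx58, from -0.04 to 0.51 for Helz2 and from -0.29 to 0.20 for Samd9l. The lowest values of Dhx58 and Helz2 were those without TNF replicate 2. Samd9l was also at -0.01 with RLE factors and in DESeq2, -0.08 with library size alone, -0.07 with upper-quartile factors, -0.03 with no filter, -0.10 without PBS replicate 1 and TNF replicate 1, and -0.19 and -0.02 when TNF replicate 2 or TNF replicate 3 was left out. The cause of these changes was not tested. Genes near 3 counts per library are limited by depth.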
